A study of Rattus norvegicus with 2 samples.

Results

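A set of 10 genes of microtubule assembly was followed in OPCs of the rat. OPCs, or oligodendrocyte precursor cells, are dividing glial cells whose descendants wrap the axons of the brain and spinal cord in myelin. The genes were chosen by symbol, for the function of their proteins, and comprise the tubulin polymerization promoting genes Tppp and Tppp3, the microtubule-associated protein (MAP) genes Mapt, Map1a, Map1b, Map2, Map4 and Map6, and the stathmin genes Stmn1 and Stmn4. Earlier results of these data were known when they were chosen. All 10 are among the 17455 genes of the deposited table. Slit1 encodes a secreted protein that binds Robo receptors. Wild-type OPCs transfected with Slit1 were set against wild-type OPCs transfected with the vector, and each group had 1 RNA sequencing library. The sources used here do not give the age of the animals, the time of harvest or the share of transfected cells.

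Microtubules are hollow polymers of alpha and beta tubulin dimers that grow and shrink from their ends. An oligodendrocyte fills its branching processes with them, and they carry vesicles and messenger RNA to the membrane that becomes myelin. TPPP promotes polymerization and bundling, MAPs bind along the lattice and stabilize it, and stathmins bind free dimers and favour disassembly.

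The Slit1 library held 18998770 estimated counts and the vector library 18817462. Slit1 itself, the transfected gene, measured 229.7 TPM (transcripts per 1000000, scaled for length) in the Slit1 library, against 1.70 TPM in the vector library, in the direction of the labels. With 1 library per group no difference has a replicate check and no p-value was computed. The 95% intervals below are exact counting intervals, which cover counting error in these libraries and not the spread between cultures. A log2 difference below is log2(TPM + 1) in Slit1 minus that in vector. It was taken for the 13175 genes that averaged 1 TPM or more, called measured here. The added 1 makes the change of low genes look smaller than it is. In the main setting the limits of 1.5-fold and 2-fold apply to this difference. Fold values between the libraries are plain TPM ratios unless CPM is named. In bulk RNA, more cells of a type and more RNA per cell cannot be told apart.

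Cell identity was checked with marker genes. OPC and lineage markers were present. The 7 in the data summed to 1960 TPM in Slit1 and 2002 TPM in vector, with 5 ratios above 1 and 2 below it. Olig1 measured 686 TPM in the Slit1 library and 730.1 TPM in the vector library, and Pdgfra 41.4 and 40.2 TPM. Not all were this close. In Slit1 and vector, Sox10 measured 218.0 and 71.4 TPM, C1ql1 137.5 and 65.0 TPM, and Ptprz1 688.2 and 913.6 TPM. Transcripts of differentiating cells were present in both libraries too. The 6 markers of newly formed oligodendrocytes summed to 1505 TPM in Slit1 and 553.4 TPM in vector. The 8 markers of mature oligodendrocytes summed to 3631 TPM in Slit1 and 820.2 TPM in vector. All 6 astrocyte markers were also present and summed to 9264 TPM in Slit1 and 8061 TPM in vector. Gfap, the astrocyte intermediate filament gene, gave 6130 of those TPM in Slit1 and 4694 in vector, so both libraries held astrocyte transcripts at a high level. The 12 neuron markers summed to 106.5 TPM in Slit1 and 90.7 TPM in vector, with Tubb3 and Elavl3 the largest terms. Over the 10 that were measured the median log2 difference was -0.27, and 4 had a ratio above 1 and 6 below it. The glutamatergic marker genes Slc17a6 and Slc17a7 had 0 counts in Slit1 and 2 and 7 counts in vector. The 5 microglia markers in the table lay at or below 0.68 TPM in Slit1 and 0.44 TPM in vector. The 5 endothelial and mural markers summed to 18.7 TPM in Slit1 and 17.5 TPM in vector. Of these, Cspg4, which OPCs express too, gave 10.3 TPM in Slit1 and 10.1 TPM in vector. The mural marker Pdgfrb gave 7.94 TPM in Slit1 and 7.06 TPM in vector. The 5 fibroblast and Schwann cell markers summed to 6.77 TPM in Slit1 and 6.74 TPM in vector.

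In the Slit1 library 3 of the 10 genes were higher by 1.5-fold or more, and 0 were lower by that amount. The 3 were Tppp, Stmn4 and Mapt. The same limit was passed by 3.72% of all measured genes upward and by 4.83% downward. Because earlier results were known when the members were chosen, the shares are set side by side only as a description. At a limit of 2-fold, 2 members were higher, against 1.24% of measured genes, and 0 were lower, against 0.645%. All 10 members passed the floor of 1 TPM, and the median log2 difference was 0.32 over the 10 and -0.05 over all measured genes. The counting interval of the TPM ratio lay above 1 for 8 members and below 1 for 2, Map2 and Map4. The share of all measured genes with an interval clear of 1 was not computed, and such intervals narrow as counts rise. With the median gene set to 0, the log2 difference of Map2 was -0.05, against -0.10 in the main setting.

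**Figure D1:**
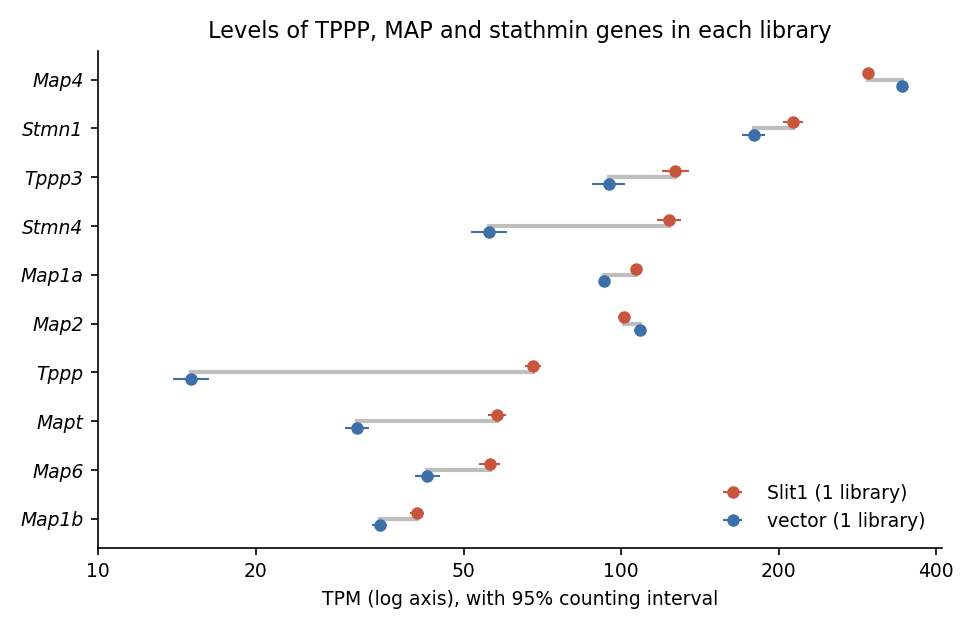
Level of each of the 10 genes in the Slit1 library (red) and the vector library (blue), in TPM on a log axis, with bars for the 95% counting interval and 1 library per group. Tppp has the widest gap, with 67.9 TPM in Slit1 against 15.1 TPM in vector, while Map4 and Map2 have their Slit1 point on the left of their vector point.

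Tppp encodes TPPP, also called p25, a brain protein found mainly in oligodendrocytes. It measured 67.9 TPM in the Slit1 library, from 3171 estimated counts, against 15.1 TPM in the vector library, from 651. The Slit1 library was thus 4.50-fold higher (interval 4.14 to 4.91), and the log2 difference of 2.10 was number 16 among the 13175 measured genes. The vector level lay above 34.7% of measured genes and the Slit1 level above 76.7%. Tppp was the least abundant of the 10 members in vector and the seventh in Slit1.

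The length behind the values of Tppp was compared between the libraries, since the deposited values per length depend on which transcripts were counted. The length implied by the counts and the deposited FPKM (fragments per kilobase and 1000000 reads) was 5.19 kb in Slit1 and 4.99 kb in vector, a ratio of 1.04. In counts scaled only to the library total (CPM), which use no length, Tppp was 4.82-fold higher. For the other 9 members the implied length differed by less, with ratios between 0.981 for Map2 and 1.003 for Map1a. Over all measured genes, 90% of these ratios lay between 0.948 and 1.06.

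Tppp3 encodes the shorter relative of TPPP, which lacks the long N-terminal tail. It measured 127 TPM in the Slit1 library and 94.7 TPM in the vector library, 1.34-fold higher (interval 1.22 to 1.47), under the limit of 1.5-fold. The balance of the pair therefore differed between the libraries. For each Tppp3 transcript there were 0.535 Tppp transcripts in Slit1 (interval 0.499 to 0.574), against 0.159 in vector (interval 0.143 to 0.177). Such a ratio within a library does not depend on how the libraries are scaled to each other.

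The promoters of Tppp and Map1b are shown because they are the 2 members whose RefSeq promoter window, 250 bases before to 50 after the annotated start, was found at the outermost start of the gene, and their TPM ratios differ, at 4.50 for Tppp and 1.18 for Map1b. The sequences are from RefSeq on assembly GRCr8, whereas the expression values were made on mRatBN7.2. Windows were found for 5 of the 10 members. Capitals mark the GC box GGGCGG and the TATA box TATAAA on either strand.
Tppp, GRCr8 chr1:31109654-31109953, minus strand: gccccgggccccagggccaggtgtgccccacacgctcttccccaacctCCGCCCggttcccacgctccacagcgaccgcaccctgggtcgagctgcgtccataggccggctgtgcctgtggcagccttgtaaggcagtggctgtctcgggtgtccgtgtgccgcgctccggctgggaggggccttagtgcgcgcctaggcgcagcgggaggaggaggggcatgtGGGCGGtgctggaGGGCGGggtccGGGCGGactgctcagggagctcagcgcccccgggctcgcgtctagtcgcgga
Map1b, GRCr8 chr2:32644422-32644721, minus strand: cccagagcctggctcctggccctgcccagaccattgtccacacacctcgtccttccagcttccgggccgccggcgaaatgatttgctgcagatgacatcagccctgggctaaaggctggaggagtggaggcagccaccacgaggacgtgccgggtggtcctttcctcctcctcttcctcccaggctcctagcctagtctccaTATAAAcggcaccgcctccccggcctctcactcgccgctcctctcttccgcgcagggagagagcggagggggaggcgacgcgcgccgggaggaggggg
The Tppp window is 73.3% G and C, more than 95.4% of all 33469 promoter windows of the same length, and holds 4 GC boxes, of which 3 begin 26, 13 and 2 bases before the start. GGGCGG occurs in 33.1% of all windows. The Map1b window is 66.7% G and C, more than 86.8% of all windows, so both windows are rich in G and C. It holds no GGGCGG and has TATAAA beginning 48 bases before the start, a motif found in 14.2% of windows. The other windows found are not at the outermost start of their gene. Of these, the Map1a window holds 2 GC boxes and the Stmn1 window 1, at TPM ratios of 1.15 and 1.19. The Map2 window holds none, at a TPM ratio of 0.934. A pair of Sox-type words and an E-box were searched on both strands as well. ACAAAG occurs in 18.8% of all windows, the word ACAATG in 13.2% and the E-box CAGCTG in 15.1%. The Tppp window holds none of the 3, and the Map1b window holds 1 of them, ACAATG, beginning 219 bases before the start, where it overlaps no capital. A match is a description of the letters and not a binding site.

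Mapt encodes tau, which in oligodendrocyte processes binds microtubules and the kinase Fyn. It measured 57.9 TPM in the Slit1 library and 31.3 TPM in the vector library, from 2677 and 1399 estimated counts in Slit1 and vector. The ratio was 1.85 (interval 1.73 to 1.97) and the log2 difference 0.87, and 1.66% of measured genes had a larger one. Its ratio was the highest of the 6 MAP genes, and its interval overlapped none of theirs. Its level relative to Map4 was 0.196 in Slit1 (interval 0.188 to 0.204) and 0.0910 in vector (interval 0.0862 to 0.0961). Relative to Map2 it was 0.571 in Slit1 and 0.289 in vector.

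Map4 encodes the MAP found in most cell types, and Map2 the MAP known for its place in neuronal dendrites. Map4 was the most abundant member in both libraries, with 296.1 TPM in Slit1 and 344.1 TPM in vector (ratio 0.860, interval 0.842 to 0.879). It made up 24.9% of the summed TPM of the 10 members in Slit1 and 34.5% in vector. Map2 measured 101.4 TPM in Slit1 and 108.5 TPM in vector (ratio 0.934, interval 0.901 to 0.969). Both differences are small: with the trend on gene length removed the log2 difference was -0.07 for Map4, against -0.22 as TPM, and 0.06 for Map2, against -0.10, so the direction of Map2 turned.

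Map1a and Map1b encode the large MAP1 proteins, each cut into a heavy and a light chain, and Map1b is known for early expression in developing neural cells. Map1a measured 106.7 TPM in Slit1 and 92.7 TPM in vector (ratio 1.15, interval 1.12 to 1.19). Map1b measured 40.7 TPM in Slit1 and 34.5 TPM in vector (ratio 1.18, interval 1.13 to 1.23). The pair kept nearly the same balance, with 2.62 Map1a transcripts per Map1b transcript in Slit1 (interval 2.53 to 2.72) and 2.68 in vector (interval 2.58 to 2.79). These genes have the longest implied lengths of the 10, 10.2 kb for Map1a and 11.8 kb for Map1b in Slit1. With the trend on gene length removed, their log2 differences were 0.37 and 0.40, against 0.20 and 0.23 as TPM, still under the 1.5-fold limit. Map1a overlaps Tp53bp1 in the GRCr8 annotation, and Tp53bp1 measured 50.6 TPM in Slit1 and 49.7 TPM in vector. Reads shared by the pair are uncertain because no source used here gives the handling of strand. Mapt, Map6 and Stmn1 overlap 3, 1 and 1 other loci in GRCr8. None of those loci is among the deposited genes, and reads shared with them are uncertain in the same way.

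Map6 encodes STOP, the protein that keeps microtubules stable in the cold. It measured 56.1 TPM in the Slit1 library and 42.6 TPM in the vector library, 1.32-fold higher (interval 1.22 to 1.42), and 7.95% of measured genes had a larger log2 difference. Its value lay with Tppp3 between the 3 genes past the limit and the remaining 5.

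The stathmin genes differed from each other. Stmn1 encodes stathmin, the soluble protein that sequesters tubulin dimers, and Stmn4 encodes a membrane-attached relative also called RB3. Stmn4 measured 123.6 TPM in the Slit1 library, from 1440 estimated counts, against 55.9 TPM in the vector library, from 626. It was 2.21-fold higher (interval 2.01 to 2.43), and 0.994% of measured genes had a larger log2 difference than its 1.13. Stmn1 measured 213.2 TPM in Slit1 and 179.1 TPM in vector (ratio 1.19, interval 1.11 to 1.27). Per Stmn1 transcript there were 0.579 Stmn4 transcripts in Slit1 (interval 0.541 to 0.621) and 0.312 in vector (interval 0.284 to 0.343). A gene of the destabilizing class was thus among the 3 past the limit, beside the polymerizing Tppp and the stabilizing Mapt.

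**Figure D2:**
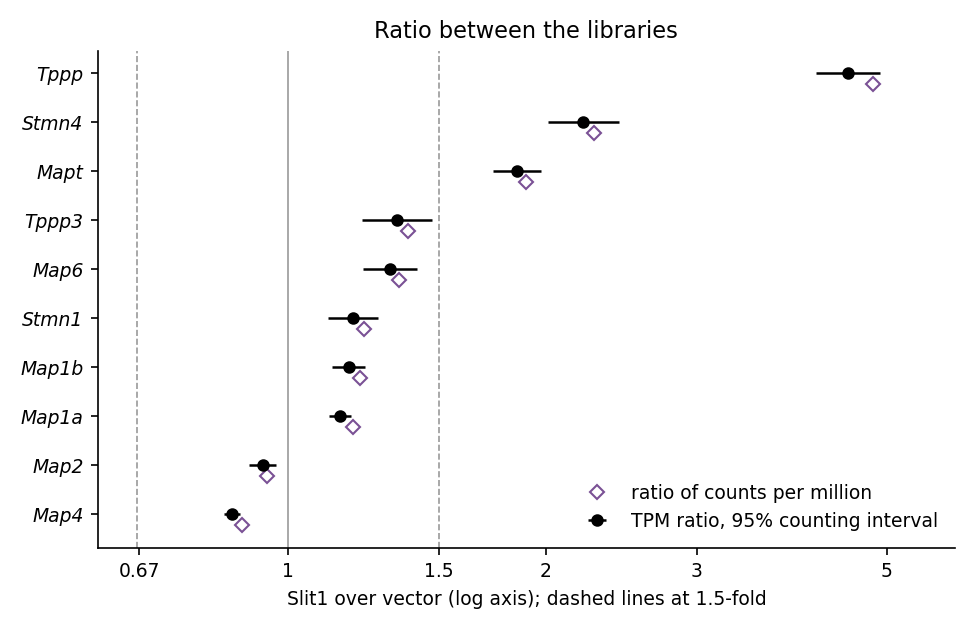
Ratio of the Slit1 library over the vector library for each gene on a log axis, as TPM with the 95% counting interval (black) and as CPM (open diamonds); dashed lines mark 1.5-fold in either direction. The intervals of Tppp, Stmn4 and Mapt lie wholly above 1.5, and those of Map2 and Map4 lie below 1 by less than 1.5-fold.

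Summed over the 10 members, the level was 1190 TPM in the Slit1 library and 998.6 TPM in the vector library, a ratio of 1.19. In Slit1 the order of levels was Map4, Stmn1, Tppp3, Stmn4, Map1a, Map2, Tppp, Mapt, Map6 and Map1b. In vector it was Map4, Stmn1, Map2, Tppp3, Map1a, Stmn4, Map6, Map1b, Mapt and Tppp. Neighbours that did not differ beyond counting error were Tppp3 and Stmn4 and also Mapt and Map6 in Slit1, and Tppp3 and Map1a in vector. With 2 libraries no gene can be said to share the pattern of Tppp. Among the 10752 genes with a symbol that reached 5 TPM in the higher library, Tppp was number 11, and near it in the order of log2 differences were Tmem163 (31.5 TPM in Slit1 and 5.73 TPM in vector, 5.50-fold higher) at number 9, the Rab GTPase gene Rab33a (40.4 TPM in Slit1 and 9.20 TPM in vector, 4.39-fold higher) at number 12 and Caly (24.7 TPM in Slit1 and 5.76 TPM in vector, 4.30-fold higher) at number 13.

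Other microtubule genes were counted in 6 lists. The table holds 92 of their genes, and 87 were measured, with 3 higher and 3 lower by 1.5-fold or more. These shares, 3.45% in each direction, lie near the 3.72% and 4.83% of all measured genes, and the median log2 difference was 0.01. The 3 higher genes were Map6d1, Sirt2 and Slain1, and the 3 lower genes were Cdk5r1, Clip4 and Map10, of which 1, Cdk5r1, was past the limit with a pseudocount of 5.

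Among 17 measured relatives of the TPPP, MAP, stathmin and doublecortin families, 1 was higher and 1 lower. Map6d1, which encodes a small relative of the Map6 product, measured 35.2 TPM in Slit1 and 12.2 TPM in vector (2.89-fold, interval 2.37 to 3.54), a larger ratio than that of Map6. Map10 was scarce, at 1.75 TPM in Slit1 and 3.28 TPM in vector (1.87-fold lower, 43.2 and 77.9 estimated counts), and Map9 measured 8.24 TPM in Slit1 and 12.2 TPM in vector. Tppp2, the third TPPP gene, had 5 estimated counts in each library. Of the remaining stathmin genes, Stmn2 measured 14.3 TPM in Slit1 and 12.1 TPM in vector (ratio 1.18, interval 0.973 to 1.44), and Stmn3 measured 31.6 and 24.6 TPM in Slit1 and vector (ratio 1.28, interval 1.08 to 1.53).

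Among 15 measured tubulin-modifying enzyme genes, 1 was higher and 0 were lower. Sirt2, which encodes a tubulin deacetylase that is abundant in oligodendrocytes, measured 1448 TPM in Slit1 and 535.6 TPM in vector (2.70-fold, interval 2.64 to 2.77). Atat1, the acetyltransferase gene that acts on the same lysine of alpha tubulin, measured 163.6 TPM in Slit1 and 125.8 TPM in vector (ratio 1.30, interval 1.23 to 1.38). Vash2, a tubulin detyrosinase gene, measured 5.54 TPM in Slit1 and 3.87 TPM in vector.

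Among 20 measured genes of end-binding proteins, 1 was higher and 1 lower. Slain1, which promotes growth at the plus end, measured 29.97 TPM in Slit1 and 17.1 TPM in vector (1.75-fold, interval 1.54 to 1.999). Clip4, which encodes a protein with domains of the cytoplasmic linker type, measured 8.70 TPM in Slit1 and 14.7 TPM in vector (1.69-fold lower, ratio 0.591, interval 0.486 to 0.718), and Clip3 measured 361.1 TPM in Slit1 and 294.2 TPM in vector. None of 10 measured severing and depolymerizing genes passed the limit; Kif2c, a depolymerizing kinesin, had a ratio of 1.44, and the severing enzyme genes Katnal1 and Fign had ratios of 0.732 and 0.691.

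Among 17 measured genes of kinases and kinase activators that act on these proteins, 0 were higher and 1 was lower. Cdk5r1, which encodes p35, the activator of the tau kinase Cdk5, measured 4.43 TPM in Slit1 and 12.1 TPM in vector (2.74-fold lower, 46.0 and 120.8 estimated counts; ratio 0.366, interval 0.254 to 0.517). Fyn, the kinase that binds tau, lay just under the limit at 563.6 TPM in Slit1 and 388.4 TPM in vector (ratio 1.45, interval 1.41 to 1.49) and just over it in CPM (ratio 1.55), and Rock2 had a ratio of 0.763. None of 8 spectraplakin and tubulin-folding genes passed the limit. Tbcel, a tubulin-folding cofactor relative, had a ratio of 0.732, and Tbcc and Tbcb had ratios of 1.13 and 1.12.

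**Figure D3:**
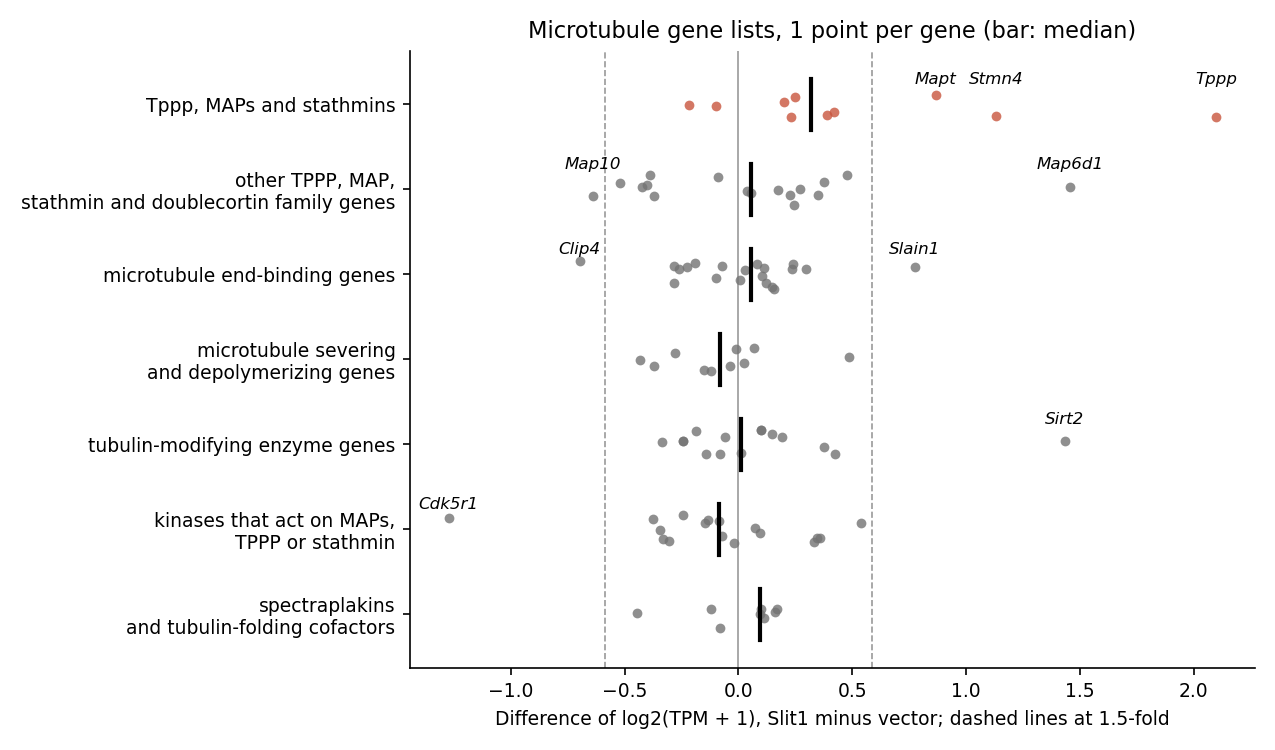
Difference of log2(TPM + 1), Slit1 minus vector, for each measured gene of the 10 members (red) and of 6 other microtubule lists (grey), 1 point per gene, with the median of each list as a black bar and dashed lines at 1.5-fold. The points past the lines are named; the medians of the 6 other lists lie between -0.08 and 0.10, and that of the 10 members at 0.32.

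Markers of the lineage and of other cells were measured beside the 10 genes. Of 7 measured OPC markers 2, Sox10 and C1ql1, were higher by 1.5-fold or more and 0 were lower. Among 6 measured markers of newly formed oligodendrocytes, 5 passed the 1.5-fold limit upward and 0 downward, and among 7 measured mature markers these numbers were 6 and 0. Of all measured genes, 3.72% passed this limit upward and 4.83% downward. Enpp6, a choline phosphodiesterase gene of newly formed oligodendrocytes, was 5.41-fold higher, Myrf, the myelin regulatory factor gene, 3.82-fold, Bcas1 2.83-fold, Gpr17 2.40-fold, Tcf7l2 1.98-fold and Itpr2 1.27-fold. The 4.50-fold of Tppp lay between the first of these and the other 5. Of 10 measured neuron markers 1, Elavl3, was higher and 2, Nefl and Elavl4, were lower. Another neuron marker, Nefm, was 1.57-fold lower as a plain TPM ratio, with 2.10 TPM in Slit1 and 3.30 TPM in vector. Its log2 difference of -0.47 did not reach the limit. Of 6 astrocyte markers 0 were higher and 1, Gja1, was lower. The part of these markers in the differences of Tppp, Stmn4 and Mapt was not tested.

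**Figure D4:**
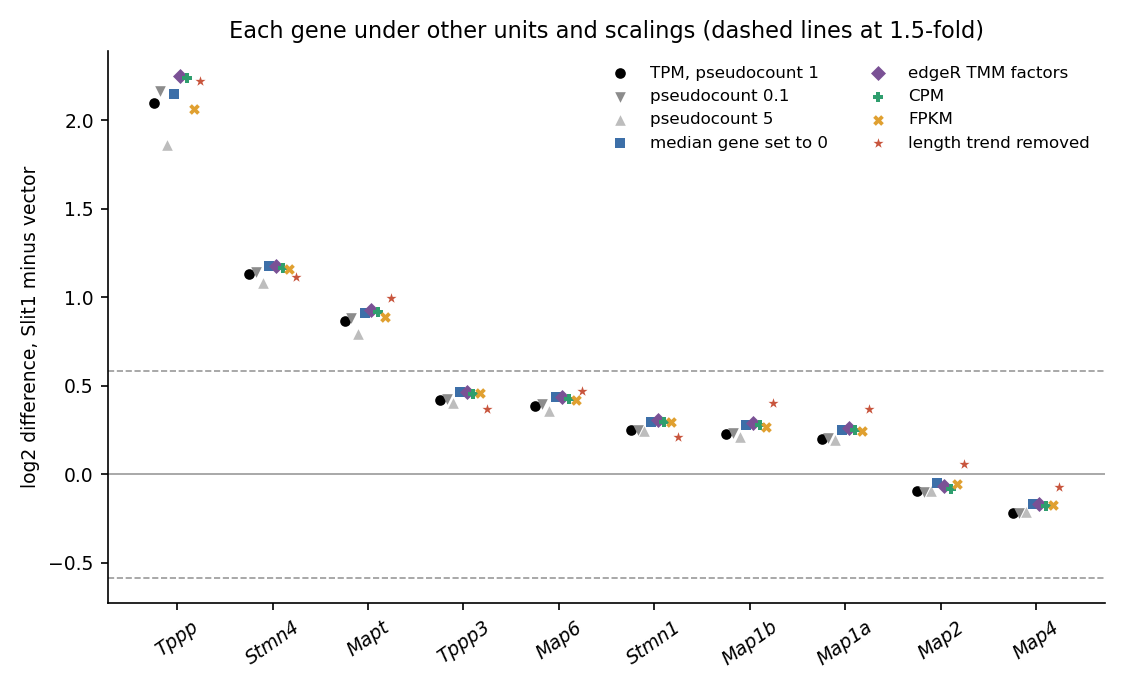
Log2 difference of each gene, Slit1 minus vector, as TPM with a pseudocount of 1 (black circles) and under 7 other units or scalings, with dashed lines at 1.5-fold. Tppp, Stmn4 and Mapt lie above the upper line under every setting drawn, the other 7 lie between the lines, and Map2 crosses 0 with the length trend removed.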

How the data were processed

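RNA from 2 cultures of rat OPCs was sequenced, 1 library per group. The authors deposited 1 table with FPKM, TPM and estimated read counts per gene, per the file headers. Per the submitters' processing notes the build was mRatBN7.2; the aligner, counter, annotation, strand setting and filters were not given in the sources used here. Deposited TPM sum to 1000000 per library. The deposited estimated counts need not be whole (32.6% in Slit1 and 27.5% in vector lie within 0.01 of a whole number). A count of 0 allows up to 3 counts, worth 0.130 TPM in Slit1 and 0.135 TPM in vector at a gene of median length; floors and intervals cover counting error only. The number of value columns of other samples was 0.

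Differences of log2(TPM + 1) were taken over genes that averaged 1 TPM or more. Exact (Clopper-Pearson) 95% intervals for the ratio of 2 Poisson counts, rounded to whole numbers, were carried to the TPM ratio. No test was possible at 1 library per group. The calculation was tested on simulated whole Poisson counts with fixed gene lengths. That checks the code, and it does not cover spread between cultures, fractional counts or lengths that move between libraries. Gene numbers were looked up in RefSeq (GRCr8), where 98.6% were found. The 10 members, the 6 pathway lists and the 8 marker lists were chosen with earlier results of these data known. From each pathway list the text names every gene past 1.5-fold and at least the 3 with the largest absolute differences, beside the 2 genes on either side of Tppp in the order of differences among genes with a symbol and 5 TPM or more in the higher library; 1 gene that this rule takes in is not reported here. Tppp2, Stmn2 and Stmn3 were picked with their values known. Alternatives, 11 in all, comprised pseudocounts of 0.1 and 5, no floor or a floor of 5 TPM, a limit of 2-fold, the median gene set to 0, edgeR 4.0.16 TMM factors on rounded counts, CPM, FPKM, a lowess length correction (span 0.3, statsmodels 0.14.6) and whole intervals beyond 1.5-fold.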

Additional observations from a re-analysis of the deposited data

How the results depend on the processing

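Under all 11 alternatives 0 members were at least 1.5-fold lower. Under 10 of them the same 3 members, Tppp, Stmn4 and Mapt, were higher, and with the 2-fold limit 2 were, Tppp and Stmn4. Some of these settings could not change the member result. All 10 members averaged more than 5 TPM, so dropping the floor or raising it to 5 TPM left their values as they were. The 2-fold limit and the whole counting intervals are stricter and could not raise the number lower. Log2 differences ranged from 1.86 (pseudocount 5) to 2.25 (edgeR TMM factors) for Tppp, from 1.08 to 1.18 for Stmn4 and from 0.79 to 0.99 for Mapt. The direction of Map2 turned in 1 of 9 alternatives, to 0.06 with the length trend removed. The 9 include the changes of floor, which could not move Map2. Among the other microtubule genes the number lower was 3 and became 1, Cdk5r1, with a pseudocount of 5, with the 2-fold limit and with whole counting intervals beyond 1.5-fold. It became 2, without Map10, with a floor of 5 TPM and in FPKM. The number higher was 4, with Fyn added, in CPM, with the length trend removed and with edgeR TMM factors. With the 2-fold limit it was 2, without Slain1. No paired analysis was possible because each group has 1 library. Without replicates, depth limits only counting error, and the spread between cultures is unknown.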

Other observations

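The values in this paragraph were chosen after they were seen. The 2 doublecortin-like kinase genes, whose products bind microtubules, lay on opposite sides of 1: Dclk1 measured 266.4 TPM in the Slit1 library and 357.6 TPM in the vector library (ratio 0.745, interval 0.727 to 0.763), and Dclk2 measured 390.7 TPM in Slit1 and 346.4 TPM in vector (ratio 1.13, interval 1.10 to 1.15). Within the Map7 family, whose products recruit kinesin to microtubules, Map7 and Map7d1 had ratios of 1.30 and 1.39, while the scarce Map7d2 and Map7d3 had ratios of 0.675 and 0.714. Dcx, the doublecortin gene of migrating neuroblasts, measured 2.53 TPM in Slit1 and 2.76 TPM in vector.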
